A study of Mus musculus with 8 samples.

Results

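Glycolysis splits glucose into pyruvate in the cytosol. Its preparatory steps spend ATP to phosphorylate and cleave the sugar, and its payoff steps return ATP and NADH. Lactate dehydrogenase then converts pyruvate to lactate, whereas pyruvate dehydrogenase sends it to the mitochondria. Many of these enzymes, with the glucose transporters, are known targets of the hypoxia-inducible factor HIF1A, whose protein is hydroxylated and degraded when oxygen is present. Spermatogonial stem cells are known for a reliance on glycolysis that gives way to mitochondrial respiration as spermatogonia differentiate.

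The expression of 35 named genes of glycolysis and the hypoxia response was examined among the 55421 genes counted in spermatogonial stem cell (SSC) culture. The genes were taken from a list of names and cover 4 transporters of glucose and lactate, 9 enzymes of the preparatory steps, 6 enzymes of the payoff steps, 5 genes of pyruvate fate and glycolytic control and 11 genes of oxygen sensing and hypoxia response. All 35 passed the filter on low counts, as did 20477 genes in all. A second, minor entry that also carries the symbol Aldoa held 1 to 7 counts per library and did not pass.

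The culture was derived from testes of C57BL/6XDBA/2 F1 hybrid pups aged 6 days and grew in all groups on irradiated mouse embryonic fibroblast feeder cells. It was treated for 2 days with vehicle in complete medium (Veh), with 0.1 µM retinoic acid in complete medium (RA), with nutrient restriction in a medium of 10% complete medium and 90% Earle's Balanced Salt Solution, EBSS (NR), or with RA in that restricted medium (NRRA). Retinoic acid is the vitamin A metabolite that starts spermatogonial differentiation, and the comparison of groups asks what it and nutrient restriction do alone and together. The complete medium contained added glucose, pyruvic acid, lactic acid and the cytokines GDNF and FGF2. Restricted medium held 10% of it, so the parts of single components in NR and NRRA changes cannot be told apart. Each group had 2 libraries, described by the study as independent biological replicates.

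Libraries held 19261333 to 30023585 counts. Levels are given as CPM, counts per 1000000 counts after scaling between libraries. Changes are given as the log2 fold change ± its standard error, with the adjusted p of edgeR's quasi-likelihood test over all 20477 genes, and a gene was called changed at an adjusted p below 0.05. Feeder RNA formed part of every library. The summed level of 13 fibroblast markers, all of which passed the filter and of which Fn1 led, was 20123 to 20237 CPM in Veh. It was 15996 to 17218 under RA, 32687 to 34132 under NR and 26059 to 26855 under NRRA. Single markers did not move as one. Of the 13, 1 rose and 9 fell with RA, 10 rose and 2 fell with NR, and 8 rose and 5 fell with NRRA. From Veh to NRRA, Col1a1 went from 3761 and 3723 CPM to 7792 and 7415. Fn1 went from 9155 and 9098 CPM to 6338 and 6115, and S100a4 from 3.22 and 3.07 to 0.465 and 0.771. The summed level of 5 germ cell markers, led by Dazl, was 679 to 702 CPM in Veh and 760 to 825 under RA. It was 803 to 832 under NR and 844 to 870 under NRRA. Of these markers, 2 rose and 2 fell with RA, 3 rose and 0 fell with NR, and 2 rose and 3 fell with NRRA. Among all tested genes, 19.8% rose and 23.4% fell with RA, 21.7% and 22.2% with NR, and 30.1% and 28.7% with NRRA. The summed level of 6 Sertoli cell markers, of which 5 passed the filter, was 18.3 to 20.5 CPM over the Veh and NR libraries, 88.6 to 98.6 under RA and 40.6 to 41.3 under NRRA. Clu, which is not restricted to Sertoli cells, held most of it under RA (85.4 and 75.0 CPM, against 8.72 and 8.86 in Veh), Wt1 was at 8.87 and 9.05 CPM under RA against 4.95 and 4.17 in Veh, and the defining markers Amh and Gata4 stayed under 1 CPM in every library. Summed markers of macrophages were at 89.1 to 131 CPM and of endothelial cells at 7.77 to 15.1 CPM over all libraries. In these bulk libraries a lower level can stand for fewer cells of a type or for less RNA per cell, and these cannot be told apart. Germ cell state also moved with the groups. The summed level of 9 markers of undifferentiated spermatogonia was 951 to 1018 CPM in Veh, 525 to 536 under RA, 962 to 991 under NR and 419 to 431 under NRRA, and that of 6 markers of differentiating spermatogonia was 243 to 258, 1181 to 1184, 256 to 263 and 1644 to 1689 CPM. The sums under NR hide single markers. Against Veh, 3 of the 9 undifferentiated markers rose and 3 fell, and 4 of the 6 differentiating markers rose and 1 fell. Stra8 was at 14.6 and 14.3 CPM under NR against 1.14 and 1.51 in Veh, and Sohlh2 at 88.6 and 90.3 against 139 and 133. The part of feeder cells, of other somatic cells and of germ cell state in the changes below was not tested.

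Most glycolytic enzyme genes were lower in each treatment than in Veh. The summed markers of undifferentiated spermatogonia were also lower under RA and NRRA. Under NR their sum lay within the range of Veh, while single markers moved both ways. The part of these markers in the enzyme values was not tested. Of the 35 genes, 24 were lower in NRRA than in Veh and 7 were higher, against 28.7% of all tested genes lower and 30.1% higher. RA alone lowered 18 and raised 5 (23.4% and 19.8% of all genes), and NR alone lowered 18 and raised 8 (22.2% and 21.7%). Among the 15 enzymes of the preparatory and payoff steps, 11 fell with RA, 12 with NR and 14 with NRRA, and 0 rose in any of these comparisons with Veh. Their median log2 fold change was -0.29 with RA, -0.37 with NR and -0.73 with NRRA, beside medians over all genes of -0.02, 0.01 and 0.03. The 11 genes of oxygen sensing and hypoxia response did not share this direction, since 6 rose and 3 fell in NRRA. The any-difference test among the 4 groups called 32 of the 35 genes, against 70.2% of all genes, and left out Pfkl, Car9 and Ankrd37.

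**Figure D1:**
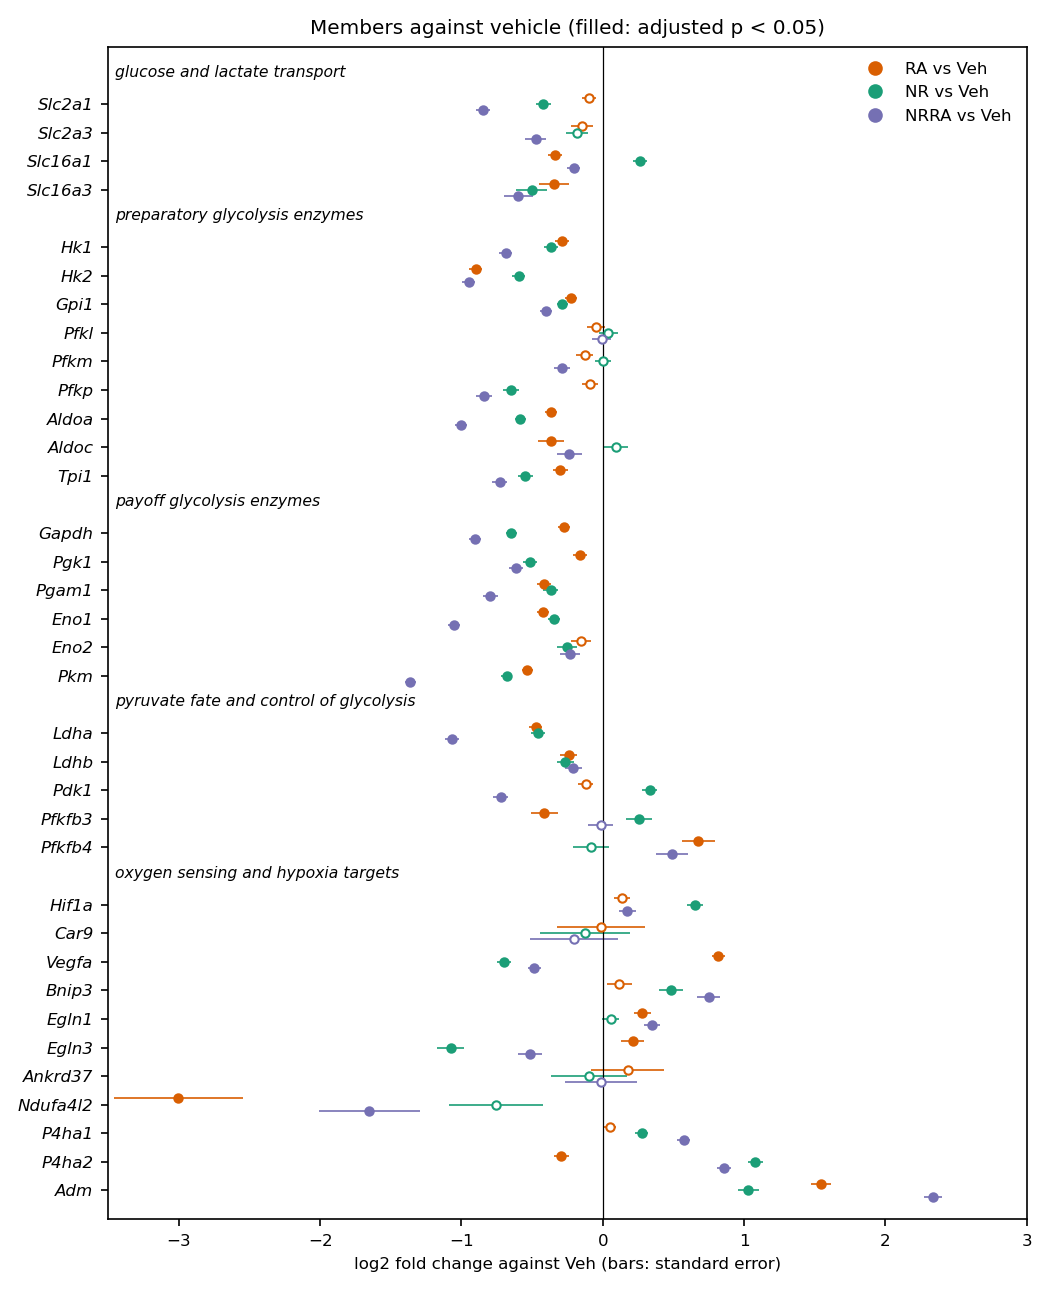
Each row is a gene, grouped by role, and the horizontal axis is the log2 fold change against Veh, with bars for the standard error. Orange, green and violet points are RA, NR and NRRA, and filled points passed an adjusted p of 0.05. Nearly all enzyme points lie left of 0, with NRRA farthest left for Pkm at -1.36, whereas Adm reached 2.34 on the right.

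Reads on 17 enzyme genes, namely the 15 above with Ldha and Ldhb, made up 0.596% and 0.565% of all counts in the Veh libraries. The share was 0.489% and 0.463% under RA, 0.425% and 0.408% under NR and 0.333% and 0.332% under NRRA. The 4 groups did not overlap in this share. The summed scaled level in RA, NR and NRRA was 76.5%, 70.1% and 52.9% of that in Veh.

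The transcripts of both glucose transporters among the 35 genes were lower in NRRA. Those listed outside the 35, Slc2a2, Slc2a4 and Slc2a8, were higher in NRRA, by 1.92 ± 0.41, 2.16 ± 0.24 and 0.40 ± 0.10. Slc2a1 encodes GLUT1, the widespread facilitative glucose transporter (chr4:119108711-119137983, GRCm38). Its level was 106 and 103 CPM in Veh, 99.5 and 96.6 under RA, 79.9 and 77.0 under NR and 58.9 and 57.7 under NRRA. The NRRA libraries were the lowest and no groups overlapped. The change with RA alone was -0.10 ± 0.05 (edgeR adjusted p = 0.12), with NR -0.42 ± 0.05 and with NRRA -0.85 ± 0.05 (edgeR adjusted p = 1.34e-13). Slc2a3, which encodes the high-affinity transporter GLUT3, fell in NRRA by 0.47 ± 0.08 on the log2 scale, from 27.7 and 25.3 CPM to 19.4 and 18.7, and NRRA was also lower than RA (-0.33 ± 0.07) and NR (-0.29 ± 0.08). Its values with RA and with NR were -0.15 ± 0.08 and -0.18 ± 0.08 (edgeR adjusted p = 0.123 and 0.0533).

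The hexokinases trap glucose in the cell as glucose 6-phosphate. Hk2, the inducible isozyme, was at 254 and 239 CPM in Veh, 134 and 130 under RA, 165 and 161 under NR and 130 and 125 under NRRA. RA alone brought Hk2 nearly to its NRRA level: the change was -0.90 ± 0.05 with RA and -0.95 ± 0.05 with NRRA, and NRRA against RA was -0.05 ± 0.05 (edgeR adjusted p = 0.454). Hk1, the constitutive isozyme, fell more evenly, by 0.29 ± 0.05 with RA, 0.36 ± 0.05 with NR and 0.69 ± 0.05 with NRRA. Per length of merged exons, Hk2 made up 65.6% ± 0.0683 (SD, n = 2) of the hexokinase pair in Veh and 55.5% ± 0.724 (SD, n = 2) in RA. Gpi1, which isomerizes glucose 6-phosphate to fructose 6-phosphate, fell by 0.23 ± 0.04, 0.29 ± 0.04 and 0.40 ± 0.04 with RA, NR and NRRA.

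Phosphofructokinase commits the sugar to glycolysis, and its 3 subunit genes differed. Pfkp, the platelet type, was at 61.4 and 61.1 CPM in Veh, 58.2 and 56.9 under RA, 39.5 and 38.7 under NR and 34.2 and 34.4 under NRRA. Both groups in restricted medium lay well below both groups in complete medium. Its change was -0.09 ± 0.06 with RA (edgeR adjusted p = 0.196), -0.65 ± 0.06 with NR and -0.84 ± 0.06 with NRRA. Pfkm, the muscle type, was lower in NRRA at -0.29 ± 0.06, with values of -0.13 ± 0.06 and 0.00 ± 0.06 in RA and NR that were not called. Pfkl, the liver type, was at 71.6 to 85.4 CPM over all 8 libraries, with overlapping groups, and its NRRA value was -0.01 ± 0.06 (edgeR adjusted p = 0.93). The share of Pfkp among the 3 genes, per exon length, was 14.7% ± 0.66 in Veh, 14.7% ± 0.0185 under RA, 9.74% ± 0.139 under NR and 9.67% ± 0.0594 under NRRA (SD, n = 2 each).

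Aldolase cleaves the sugar and triose phosphate isomerase interconverts the products. Aldoa was at 785 and 737 CPM in Veh, 611 and 571 under RA, 519 and 498 under NR and 383 and 375 under NRRA, in 4 groups that did not overlap. It fell by 1.01 ± 0.04 on the log2 scale in NRRA (edgeR adjusted p = 6.2e-17). The minor aldolase gene Aldoc, at 12.9 to 18.5 CPM, fell by 0.37 ± 0.09 with RA and by 0.24 ± 0.09 with NRRA. The RA call of Aldoc was lost without Veh replicate 1 (-0.26), and its NRRA call was lost without Veh replicate 1 (-0.15), NRRA replicate 1 (-0.21) or NRRA replicate 2 (-0.26), and under DESeq2 (-0.26), upper quartile scaling (-0.20) or no filter on low counts (-0.23). Tpi1 fell by 0.30 ± 0.05 with RA, 0.55 ± 0.05 with NR and 0.73 ± 0.05 with NRRA.

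All 6 enzymes of the payoff steps were lower in NR and in NRRA, beside 22.2% and 28.7% of all genes. In RA 5 were lower, beside 23.4%. NRRA values of the 6 ranged from -0.23 for Eno2 to -1.36 for Pkm. Pkm encodes pyruvate kinase, which makes pyruvate and ATP in the last step (chr9:59656368-59679375, GRCm38). It was at 1693 and 1589 CPM in Veh, 1173 and 1096 under RA, 1043 and 1008 under NR and 642 and 635 under NRRA. All 4 groups stood apart, with NRRA lowest. The fall was 0.53 ± 0.04 with RA, 0.68 ± 0.04 with NR and 1.36 ± 0.04 with NRRA (edgeR adjusted p = 2.9e-20), so the NRRA level was 0.389 times that of Veh. These gene-level counts cannot separate the PKM1 and PKM2 splice forms.

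**Figure D2:**
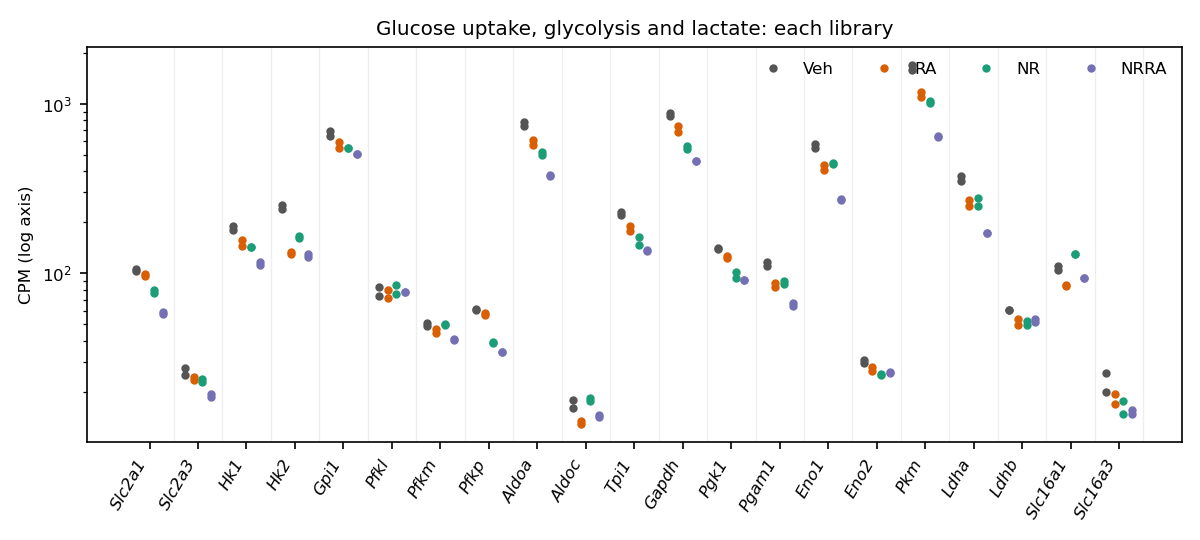
Points are single libraries in CPM on a log axis, coloured by group, with genes in the order of the pathway from glucose transporters to lactate transporters. Heights of different genes are not scaled to length and should not be compared. The violet NRRA points are lowest for Aldoa, Gapdh, Eno1, Pkm and Ldha, whereas the 8 points of Pfkl overlap.

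Eno1, the main enolase gene, was at 580 and 550 CPM in Veh, 437 and 405 under RA, 449 and 440 under NR and 275 and 270 under NRRA. The RA and NR libraries were similar to each other, and NRRA was lower than both. It fell by 1.05 ± 0.04 in NRRA. Near-identical copies of Eno1, chiefly the intronless Eno1b with 99.45% identity, held counts equal to 26.9% to 28.7% of those of Eno1, so the division of reads between them is uncertain. Eno2, the neuronal enolase, fell by less, at -0.25 ± 0.07 with NR and -0.23 ± 0.07 with NRRA, and its RA value was -0.15 ± 0.07 (edgeR adjusted p = 0.0767). The NR call of Eno2 was lost without NR replicate 2, at -0.23. Its share of enolase per exon length was 5.79% ± 0.0587 in Veh, 6.92% ± 0.106 under RA, 6.14% ± 0.0304 under NR and 9.78% ± 0.212 under NRRA (SD, n = 2 each).

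Gapdh, which oxidizes glyceraldehyde 3-phosphate and is often used as a reference gene, was at 876 and 847 CPM in Veh, 742 and 682 under RA, 562 and 540 under NR and 461 and 461 under NRRA. The groups did not overlap, and the change was -0.28 ± 0.04, -0.65 ± 0.04 and -0.90 ± 0.04 with RA, NR and NRRA. Its 41 near-identical copies held counts equal to 12.9% to 15.3% of its own. Pgk1, which makes ATP from 1,3-bisphosphoglycerate, fell by 0.16 ± 0.05, 0.52 ± 0.05 and 0.61 ± 0.05. Its RA call was lost without RA replicate 2, at -0.15. Pgam1, the phosphoglycerate mutase, fell by 0.42 ± 0.05, 0.37 ± 0.05 and 0.80 ± 0.05.

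The genes of pyruvate fate include both lactate dehydrogenase subunits and Pdk1, whose product is a kinase that switches pyruvate dehydrogenase off. Their transcripts were counted, and the fate of pyruvate itself was not measured. Ldha, the subunit that favours lactate production (chr7:46841475-46855627, GRCm38), was at 372 and 352 CPM in Veh, 271 and 251 under RA, 278 and 250 under NR and 173 and 173 under NRRA. RA and NR overlapped and NRRA was lower than either. Ldha fell by 0.48 ± 0.05, 0.46 ± 0.05 and 1.07 ± 0.05 with RA, NR and NRRA (edgeR adjusted p = 4.93e-16 in NRRA). Ldhb, the subunit that favours pyruvate, fell by 0.24 ± 0.06, 0.26 ± 0.06 and 0.21 ± 0.06. Its RA call was lost without RA replicate 2 (-0.18) and its NRRA call without NRRA replicate 2 (-0.18). With these unequal changes, Ldhb per exon length was 26.2% ± 0.725 of the pair in Veh, 29.5% ± 0.122 under RA, 28.9% ± 0.725 under NR and 39.1% ± 0.691 under NRRA (SD, n = 2 each).

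**Figure D3:**
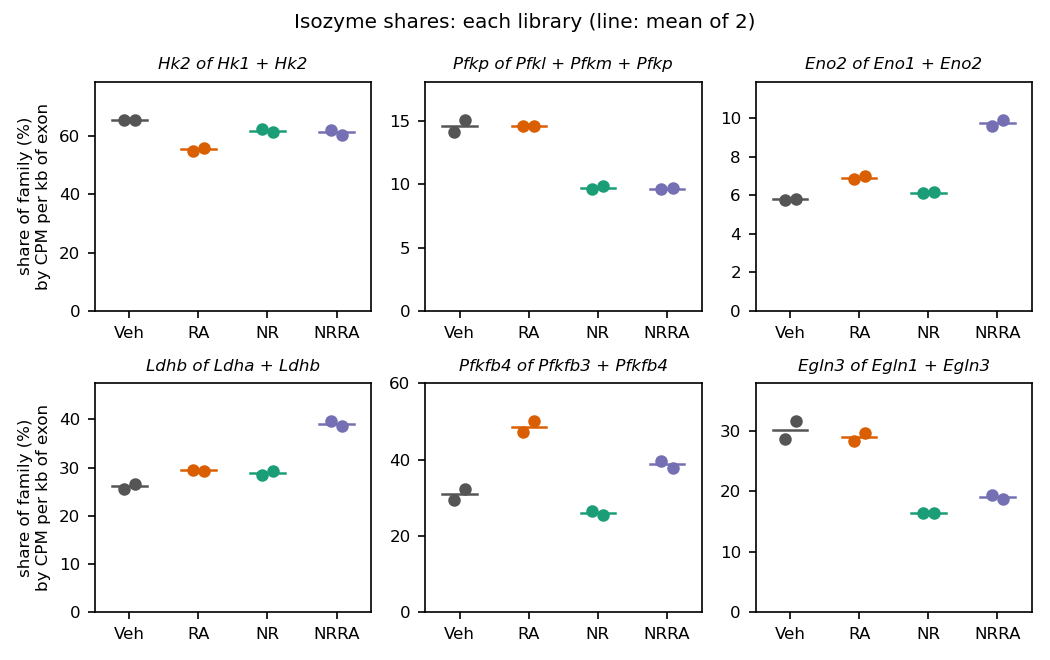
Each panel gives a gene's share of its isozyme family in percent, from CPM per kb of merged exon, with points for the 8 libraries and lines for the mean of 2. Ldhb and Eno2 were highest in NRRA, Pfkp and Egln3 were lower in both groups in restricted medium, and Pfkfb4 was highest in RA.

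Pdk1 moved in both directions. It was at 67.0 and 68.6 CPM in Veh, 62.9 and 61.9 under RA, 87.0 and 84.1 under NR and 40.5 and 41.6 under NRRA. NR was the highest group and NRRA the lowest, without overlap. Pdk1 rose by 0.33 ± 0.05 with NR and fell by 0.72 ± 0.06 with NRRA. Its value with RA alone was -0.12 ± 0.05 (edgeR adjusted p = 0.0751).

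The bifunctional enzymes that set fructose 2,6-bisphosphate, the activator of phosphofructokinase, moved in opposite directions with RA. Pfkfb4 was at 7.88 and 7.92 CPM in Veh, 13.9 and 11.7 under RA, 7.71 and 7.25 under NR and 11.5 and 10.7 under NRRA, and it rose by 0.68 ± 0.12 with RA and by 0.49 ± 0.11 with NRRA. Both groups that received RA lay above both that did not. Pfkfb3 was at 29.3 and 25.7 CPM in Veh, 24.1 and 18.0 under RA, 33.0 and 32.8 under NR and 27.2 and 27.4 under NRRA. It fell by 0.41 ± 0.10 with RA and rose by 0.25 ± 0.09 with NR. The RA call was lost without RA replicate 2 (-0.20), and the NR call without Veh replicate 2 (0.18), NR replicate 1 (0.27) or NR replicate 2 (0.28), and under DESeq2 (0.25). Pfkfb4 made up 30.9% ± 2.08 of the pair per exon length in Veh, 48.6% ± 2.02 under RA, 26.1% ± 0.755 under NR and 38.7% ± 1.41 under NRRA (SD, n = 2 each).

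Lactate leaves and enters cells through monocarboxylate transporters. Slc16a1, which encodes MCT1, was at 105 and 111 CPM in Veh, 85.8 and 84.4 under RA, 130 and 129 under NR and 93.2 and 93.5 under NRRA. NR was highest and RA lowest, without overlap, with changes of -0.34 ± 0.05, 0.27 ± 0.05 and -0.21 ± 0.05 for RA, NR and NRRA. Slc16a3, which encodes the exporter MCT4, fell by 0.35 ± 0.11, 0.50 ± 0.11 and 0.60 ± 0.10. Its RA call was lost without Veh replicate 1 (-0.12) or RA replicate 2 (-0.23).

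The hypoxia response genes split into rising and falling members. HIF1A acts by binding the core letters ACGTG or GCGTG in target promoters. Adm encodes adrenomedullin, a secreted vasodilator peptide induced by hypoxia (chr7:110627661-110629820, GRCm38), and it changed more than any of the other 34 genes in NRRA. Its level was 19.6 and 19.2 CPM in Veh, 56.8 and 56.4 under RA, 41.9 and 37.7 under NR and 98.8 and 97.3 under NRRA. The groups did not overlap, and each treatment lay above Veh. The rise was 1.54 ± 0.07 with RA, 1.03 ± 0.07 with NR and 2.34 ± 0.07 with NRRA (edgeR adjusted p = 8.96e-21), which was 5.05-fold in NRRA.

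Vegfa, the endothelial growth factor and a much used readout of HIF activity, moved the other way in restricted medium. It was at 133 and 134 CPM in Veh, 236 and 234 under RA, 82.7 and 81.7 under NR and 96.9 and 93.6 under NRRA. RA was the highest group and both restricted groups were lower than Veh. The changes were 0.82 ± 0.04 with RA, -0.70 ± 0.05 with NR and -0.49 ± 0.05 with NRRA.

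Hif1a itself, whose product is regulated mainly as a protein, was at 245 and 301 CPM in Veh, 307 and 293 under RA, 429 and 429 under NR and 314 and 302 under NRRA. Only NR stood clear of the other groups, and the Veh libraries were far apart. It rose by 0.65 ± 0.06 with NR (edgeR adjusted p = 6.04e-10). The NRRA call, at 0.18 ± 0.06, did not hold without Veh replicate 1 (0.04) or NRRA replicate 1 (0.15), and it was not called with DESeq2 (0.15, DESeq2 adjusted p = 0.243). After the trend with GC content and exon length was removed, Hif1a was called lower in NRRA, at -0.10 (edgeR adjusted p = 0.0345).

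The HIF prolyl hydroxylases mark HIF1A for degradation in the presence of oxygen. Egln3, which encodes PHD3, was at 17.7 and 18.2 CPM in Veh, 20.4 and 21.2 under RA, 8.58 and 8.51 under NR and 12.8 and 12.3 under NRRA. Both restricted groups were well below the others, with changes of -1.07 ± 0.10 for NR and -0.52 ± 0.09 for NRRA. The RA value of Egln3, 0.21 ± 0.08, was called (edgeR adjusted p = 0.0393) but lost the call without any of Veh replicate 1 (0.22), RA replicate 1 (0.23), RA replicate 2 (0.18), NRRA replicate 1 (0.21) or NRRA replicate 2 (0.21), and under DESeq2 (0.21) or no filter on low counts (0.20). Egln1, which encodes PHD2, was at 59.6 and 53.3 CPM in Veh, 69.6 and 67.7 under RA, 59.1 and 58.3 under NR and 71.6 and 72.2 under NRRA. It rose by 0.28 ± 0.06 with RA and by 0.35 ± 0.06 with NRRA, and the groups with RA lay above those without. The share of Egln3 in the pair, per exon length, was 28.7% and 31.6% in Veh, 28.4% and 29.7% under RA, 16.4% and 16.5% under NR and 19.5% and 18.7% under NRRA.

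**Figure D4:**
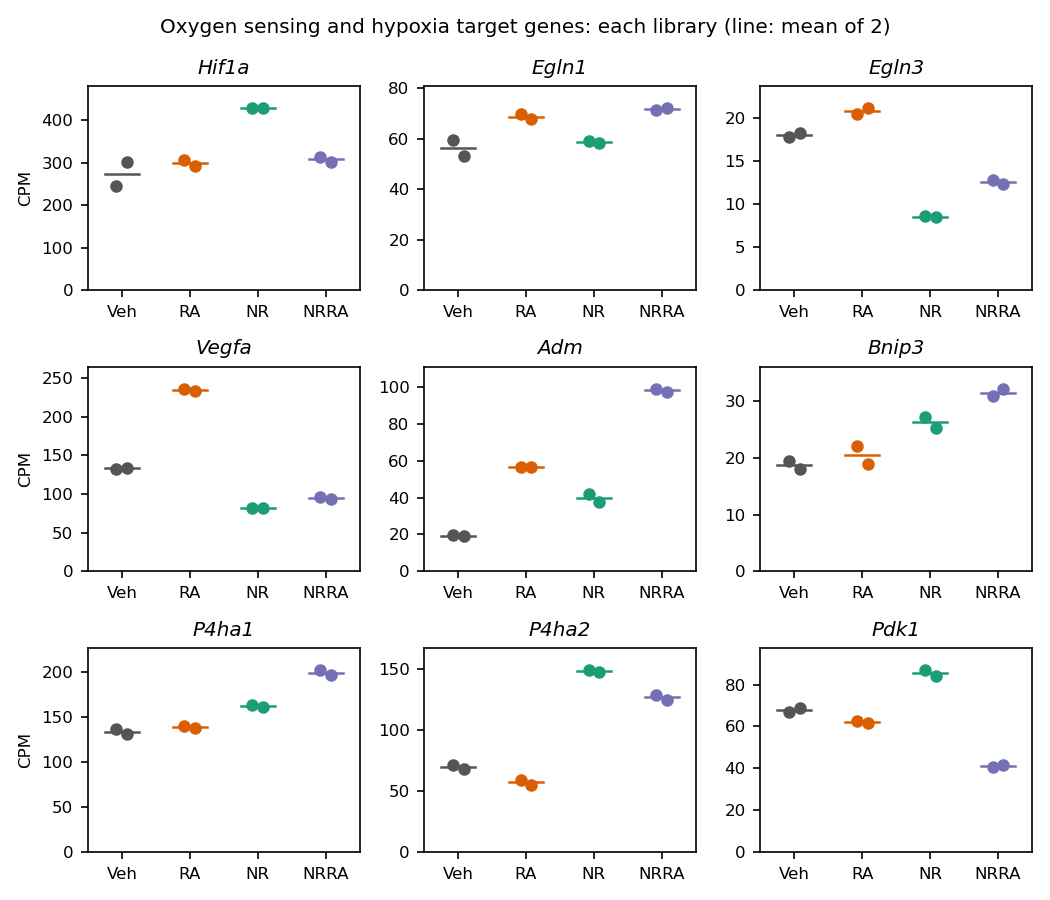
Panels give CPM from 0 for 9 genes, with points for the 8 libraries and lines for the mean of 2 in each group. Adm rose in every treatment, Vegfa was highest in RA, Egln3 was lowest in NR, and Pdk1 was highest in NR and lowest in NRRA.

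The collagen prolyl 4-hydroxylase subunits, which fibroblasts use in collagen folding, rose in restricted medium. P4ha2 was at 71.7 and 68.5 CPM in Veh, 59.2 and 55.6 under RA, 149 and 147 under NR and 129 and 125 under NRRA, so RA was lowest and NR highest, without overlap. Its changes were -0.29 ± 0.05, 1.08 ± 0.05 and 0.86 ± 0.05. The groups fell in the same order for the summed fibroblast markers. Of these 13, 10 rose and 2 fell in NR (21.7% and 22.2% of all genes). In NRRA 8 rose and 5 fell (30.1% and 28.7%). The part of feeder cells in the P4ha2 values was not tested. P4ha1 was at 136 and 131 CPM in Veh, 140 and 137 under RA, 164 and 160 under NR and 202 and 196 under NRRA, with changes of 0.05 ± 0.05 (edgeR adjusted p = 0.391), 0.28 ± 0.05 and 0.57 ± 0.04. Unlike P4ha2 it was highest in NRRA.

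Bnip3, a mitophagy receptor, was at 19.4 and 18.1 CPM in Veh, 22.2 and 18.9 under RA, 27.3 and 25.3 under NR and 30.9 and 32.2 under NRRA. RA overlapped Veh and the restricted groups lay above both, with a rise of 0.48 ± 0.09 in NR and 0.75 ± 0.08 in NRRA. Genes on the opposite strand cover 22.3% of the exon bases of Bnip3, 22.7% of Ankrd37 and 11.5% of Gpi1, and genes on the same strand 15.3% of Pkm and 10.2% of Pfkm, where reads may have been divided or lost. Ndufa4l2, a HIF-induced relative of a respiratory chain subunit, was barely expressed, at 2.18 and 1.88 CPM in Veh, 0.408 and 0.139 under RA, 1.78 and 0.721 under NR and 0.572 and 0.706 under NRRA. Its changes of -3.00 ± 0.46 with RA and -1.65 ± 0.36 with NRRA rest on 4 to 44 counts per library. The RA value moved to -3.83 without RA replicate 1 and to -2.30 without RA replicate 2. Car9, the hypoxia-induced carbonic anhydrase, stayed at 0.835 to 1.41 CPM and Ankrd37 at 1.39 to 2.14 CPM, and neither was called in any comparison, with standard errors in NRRA of 0.31 and 0.26.

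Promoter sequences were taken from RefSeq (GRCm38.p6) as the 250 bases before each annotated start, and 33 of the 35 genes matched, with 47 windows. Either strand was searched for ACGTG and GCGTG. At least 1 of these stood in 38 of the 47 windows (80.9%), against 38.6% of all 32851 windows of this length. The median GC content was 60.4% in the windows of these genes and 52.4% in all windows, and its part in this difference was not tested. The genes were listed by name and many are known HIF1A targets, so the comparison with all windows cannot serve as a test. Windows of 1 gene were counted separately, as with 4 for Pfkm. The E-box CACGTG, which contains ACGTG on both strands, was in 6 of 47 windows (12.8%) and in 6.02% of all.

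Windows of 5 genes are given (for Ldha and Pkm the first listed of 2), each 5′ to 3′ on the strand of its gene. The prolyl hydroxylase genes Egln1 and Egln3 are shown because they moved in opposite directions in NRRA. Ldha and Pkm, which fell, and Adm, which rose, were chosen after their values were seen. Capitals mark ACGTG or GCGTG on either strand, and a match is a string of letters, not a measured binding site.
Ldha, chr7:46845554-46845803, plus strand: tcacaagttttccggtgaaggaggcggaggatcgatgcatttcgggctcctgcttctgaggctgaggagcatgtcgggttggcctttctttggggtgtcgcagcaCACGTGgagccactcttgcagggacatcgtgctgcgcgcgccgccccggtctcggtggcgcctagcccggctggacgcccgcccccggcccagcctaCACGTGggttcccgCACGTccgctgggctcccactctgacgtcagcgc
Pkm, chr9:59656326-59656575, plus strand: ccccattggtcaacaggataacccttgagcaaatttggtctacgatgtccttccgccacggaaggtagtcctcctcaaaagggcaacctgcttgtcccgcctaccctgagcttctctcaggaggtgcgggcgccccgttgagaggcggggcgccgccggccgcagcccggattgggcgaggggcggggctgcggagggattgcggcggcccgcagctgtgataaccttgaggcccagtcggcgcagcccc
Adm, chr7:110627407-110627656, plus strand: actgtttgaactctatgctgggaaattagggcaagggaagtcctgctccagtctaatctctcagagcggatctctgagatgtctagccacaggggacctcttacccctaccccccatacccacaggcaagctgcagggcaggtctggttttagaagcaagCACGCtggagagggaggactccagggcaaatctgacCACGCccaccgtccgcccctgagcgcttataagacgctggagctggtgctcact
Egln1, chr8:124949255-124949504, minus strand: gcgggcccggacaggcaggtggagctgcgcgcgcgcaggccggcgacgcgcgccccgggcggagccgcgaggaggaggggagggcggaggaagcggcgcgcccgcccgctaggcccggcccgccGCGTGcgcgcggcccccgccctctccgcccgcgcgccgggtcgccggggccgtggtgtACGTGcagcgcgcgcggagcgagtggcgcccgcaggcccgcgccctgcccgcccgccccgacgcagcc
Egln3, chr12:54203875-54204124, minus strand: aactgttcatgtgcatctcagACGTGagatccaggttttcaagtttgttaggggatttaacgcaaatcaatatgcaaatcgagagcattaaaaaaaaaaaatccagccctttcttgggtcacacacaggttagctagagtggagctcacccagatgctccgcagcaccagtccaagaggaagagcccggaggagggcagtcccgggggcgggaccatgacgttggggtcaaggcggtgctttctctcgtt
The Ldha window held 5 matches of ACGTG, of which 4 lie in 2 E-boxes and so count each E-box on both strands, and the Pkm window held 0 of either core. The other Ldha window, not shown, held 0 of ACGTG and 1 of GCGTG, and the other Pkm window 1 of ACGTG and 0 of GCGTG. Both genes were more than 2-fold lower in NRRA. Adm held 2 matches of GCGTG and 0 of ACGTG, Egln1 held 1 of each, and Egln3 held 1 of ACGTG and 0 of GCGTG.

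Adding nutrient restriction to RA lowered 17 of the 35 genes and raised 6 (NRRA against RA), beside 19.4% and 20.9% of all genes. The largest falls were in Vegfa at -1.30 ± 0.04, Pkm at -0.83 ± 0.04, and Slc2a1 and Pfkp at -0.75 each (SE 0.05 and 0.06). P4ha2 rose by 1.15 ± 0.05, Adm by 0.79 ± 0.05 and Bnip3 by 0.63 ± 0.08. Hk2, Ldhb and Hif1a had values of -0.05 ± 0.05, 0.03 ± 0.06 and 0.04 ± 0.06 and were not called.

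Adding RA to nutrient restriction lowered 20 genes and raised 7 (NRRA against NR), beside 22.1% and 21.3% of all genes. Pdk1 fell by 1.06 ± 0.05, Eno1 by 0.71 ± 0.04, Pkm by 0.68 ± 0.04 and Ldha by 0.61 ± 0.05. Adm rose by 1.31 ± 0.06, Pfkfb4 by 0.57 ± 0.11 and Egln3 by 0.56 ± 0.10. Of the 15 glycolytic enzymes, 12 fell and 0 rose. The call of Gpi1 was lost without NR replicate 1 (-0.13), NR replicate 2 (-0.13), NRRA replicate 1 (-0.12) or NRRA replicate 2 (-0.12). That of Pfkp was lost without NR replicate 1 (-0.19), NRRA replicate 1 (-0.18) or NRRA replicate 2 (-0.19). That of Tpi1 was lost without NR replicate 1 (-0.12).

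The single treatments differed from each other in 22 of the 35 genes (NR against RA), beside 48.3% of all genes, with 10 higher in NR and 12 lower (24.5% and 23.8% of all). Vegfa and Egln3 were lower in NR by 1.52 ± 0.05 and 1.29 ± 0.09 on the log2 scale, and P4ha2 was higher by 1.37 ± 0.05. Pfkfb3, Slc16a1 and Hif1a were higher in NR by 0.67 ± 0.09, 0.61 ± 0.05 and 0.52 ± 0.06. Ldha, at 0.02 ± 0.05, and Pgam1, at 0.05 ± 0.05, were not called, with edgeR adjusted p of 0.814 and 0.477.

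Whether RA acted differently in the restricted medium was tested as an interaction, (NRRA - NR) - (RA - Veh), in which 0 means that both media gave an equal RA response. It called 9 of the 35 genes, beside 13% of all genes, with 4 above 0 and 5 below (6.37% and 6.58% of all). Leaving out 1 library moved these counts: those above 0 fell to 1 without RA replicate 2 or NR replicate 2 and to 2 without NR replicate 1 or NRRA replicate 1, and those below 0 rose to 8 without Veh replicate 1 or NR replicate 2. Of the 15 enzymes 13 were not called, with a median of 0.00, and for these 13 a difference in RA response between the media was not detected. Eno1 was called at -0.28 ± 0.06 and fell further with RA in restricted medium.

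Pdk1 had the interaction with the smallest adjusted p of the 35 (edgeR adjusted p = 1.5e-09) at -0.94 ± 0.08. RA changed Pdk1 by -0.12 ± 0.05 in complete medium and by -1.06 ± 0.05 in restricted medium. Hif1a, at -0.61 ± 0.08, had RA values of 0.14 ± 0.06 and -0.48 ± 0.06 in complete and restricted medium. Vegfa, at -0.60 ± 0.06, rose with RA by 0.82 ± 0.04 in complete medium and by 0.21 ± 0.05 in restricted medium. For Hk2, at 0.55 ± 0.07, the fall with RA was 0.90 ± 0.05 in complete medium and 0.35 ± 0.05 in restricted medium. Slc2a1 was at -0.33 ± 0.07. Adm had -0.24 ± 0.09 (edgeR adjusted p = 0.0881) and Pkm -0.15 ± 0.06 (edgeR adjusted p = 0.0775), which were not called.

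The other called genes were P4ha1 at 0.25 ± 0.06, Ldhb at 0.30 ± 0.08 and Ndufa4l2 at 2.10 ± 0.64. The call of P4ha1 was lost without RA replicate 2 (0.23), NR replicate 1 (0.22), NR replicate 2 (0.20) or NRRA replicate 1 (0.23). That of Ldhb was lost without RA replicate 2 (0.23), NR replicate 1 (0.30), NR replicate 2 (0.22) or NRRA replicate 1 (0.27), and under DESeq2 (0.28). That of Ndufa4l2 was lost without Veh replicate 1 (1.95), RA replicate 2 (1.41), NR replicate 2 (1.5) or NRRA replicate 2 (1.94), and its value rose to 2.93 without RA replicate 1.

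**Figure D5:**
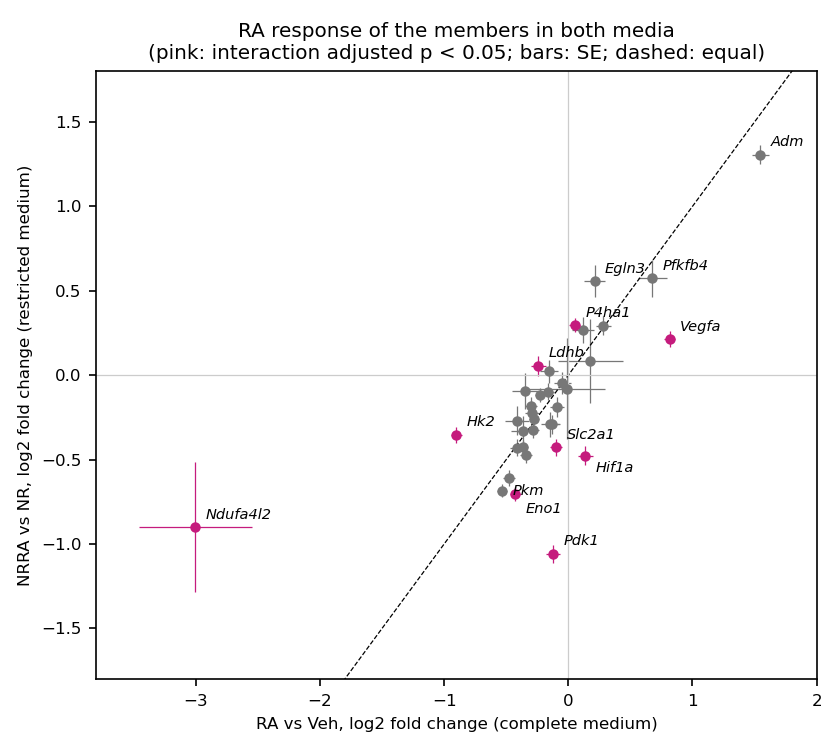
Each point is a gene, with the log2 fold change of RA against Veh on the horizontal axis and of NRRA against NR on the vertical axis, and bars for standard errors. Pink points had a called interaction and the dashed line marks equal responses. Pdk1 lies far below the line, with -0.12 and -1.06, whereas Adm at 1.54 and 1.31 lies near it.

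Most changes were smaller than 2-fold. With a 2-fold change required as well, 1 gene was higher in NRRA than in Veh, namely Adm, beside 9.91% of all genes, and 5 were lower, beside 6.02%, namely Pkm, Ldha, Eno1, Aldoa and Ndufa4l2. RA alone gave 1 higher, Adm (4.74% of all genes), and 1 lower, Ndufa4l2 (2.75%). NR alone gave 2 higher, P4ha2 and Adm (5.33%), and 1 lower, Egln3 (2.96%). In NRRA against RA these were P4ha2 (4.61%) and Vegfa (3.68%), and in NRRA against NR Adm (4.56%) and Pdk1 (4.14%), with 1 gene in each direction. In NR against RA, P4ha2 and Ndufa4l2 were higher (6.87%) and Vegfa and Egln3 lower (5.62%), and the interaction gave Ndufa4l2 above 0 (0.786%) and 0 genes below (1.46%).

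Neighbouring pathways were read from lists of other genes. Of 16 citric acid cycle genes 15 were lower in NRRA than in Veh and 0 higher, beside 28.7% and 30.1% of all genes, with a median of -0.34, and only Sdha, at 0.09 ± 0.04, was not called. Idh3a, a subunit of isocitrate dehydrogenase, fell by 0.62 ± 0.06, Mdh2, the mitochondrial malate dehydrogenase, by 0.61 ± 0.04 and Dlst, of the oxoglutarate dehydrogenase complex, by 0.57 ± 0.04. Of 10 pentose phosphate genes 7 were lower and 2 higher, namely Rpia and H6pd at 0.47 ± 0.06 and 0.23 ± 0.04, with a median of -0.40. Rpe, at -0.04 ± 0.07, was not called. G6pdx and Pgd, the NADPH-producing dehydrogenases of this pathway, fell by 0.98 ± 0.06 and 0.97 ± 0.05, and Tkt, the transketolase, by 0.74 ± 0.05.

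Of 24 listed isozymes and related genes of glycolysis outside the 35, 20 were tested, 10 were higher in NRRA and 5 were lower, beside 30.1% and 28.7% of all genes. The 5 lower were Galk1, Ldhd, Pgm2, Adpgk and Bsg, at -0.51 to -0.13, and the 5 not called were Pgam2, Ldhc, Pfkfb1, Bpgm and Hk3. Slc2a4, which encodes the insulin-responsive transporter GLUT4, rose by 2.16 ± 0.24 from 0.991 and 0.886 CPM to 4.43 and 4.01. Gapdhs, the sperm-specific form of Gapdh, rose by 0.58 ± 0.20 and Pfkfb2, a relative of Pfkfb3, by 0.54 ± 0.12. Around pyruvate dehydrogenase, 5 of 12 genes were higher (30.1% of all genes higher and 28.7% lower in this comparison), with Pdk2 (0.21 ± 0.08) and Pdp2 (0.17 ± 0.07) the smallest, and 3 were lower, namely Mpc2, Pdha1 and Dlat, at -0.19 to -0.12. Pdk3, Dld, Pdhx and Pdhb were not called. Pdk4, a kinase of the complex like Pdk1, rose by 1.70 ± 0.11 in NRRA, where Pdk1 fell. Mpc1, of the mitochondrial pyruvate carrier, rose by 0.45 ± 0.12 and the phosphatase gene Pdp1 by 0.24 ± 0.07.

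Of 10 tested genes of gluconeogenesis and glucose response, from 13 listed, 3 were higher and 5 lower in NRRA, beside 30.1% and 28.7% of all genes. Pck2 and Pcx, enzymes of gluconeogenesis, rose by 0.72 ± 0.07 and 0.48 ± 0.05. Mlxipl, which encodes the glucose-responsive factor ChREBP, rose by 1.17 ± 0.08. Txnip, which restrains glucose uptake and is induced by glucose, fell by 1.06 ± 0.05, and Tigar, a fructose bisphosphatase, by 0.75 ± 0.06. The other lower genes were G6pc3, Arrdc4 and Mlx, at -0.44 to -0.35, and Mlxip and Pck1 were not called. Of 11 further oxygen sensing factors 6 were higher and 2 lower, beside the same 30.1% and 28.7%. Arnt2, a HIF partner, rose by 0.45 ± 0.07. Hif3a and Elob, which were the 2 lower genes, fell by 0.77 ± 0.11 and 0.52 ± 0.05, and Eloc, Siah1a and Egln2 were not called.

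Of 37 other hypoxia targets tested, 15 were higher and 17 lower in NRRA (30.1% and 28.7% of all genes), with a median of -0.07, and Ndrg1, Mxi1, Bnip3l, Rora and Stc2 were not called. Stc1, a secreted glycoprotein, was at 25.3 and 26.99 CPM in Veh, 46.2 and 43.5 under RA, 2.70 and 2.05 under NR and 2.50 and 1.77 under NRRA, so that RA was highest and both restricted groups were lowest. Hmox1, the haem oxygenase, was at 357 and 337 CPM in Veh and 87.6 and 86.0 in NRRA, and fell by 2.00 ± 0.05. Bhlhe41, a transcriptional repressor, fell by 2.22 ± 0.07.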

How the data were processed

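RNA-seq counts of SSC culture in 4 groups of 2 libraries were analysed. The authors deposited raw counts per gene, without normalization. Per the labels' processing notes they used bcl2fastq, STAR 2.6.1c, featureCounts 1.6.4 and mm10. Sources name different library kits, and strand use in counting is not given in the sources used here, so reads of overlapping genes are uncertain. Of the columns, 0 lacked a sample. The members and lists were chosen with earlier results of these data known.

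Genes were kept by filterByExpr, scaled by TMM and fitted with edgeR 4.0.16 (R 4.3.3) over all 8 libraries with 1 coefficient per group, which leaves 4 residual degrees of freedom, and p-values were adjusted by Benjamini-Hochberg. The script was tested on simulated data. A call meant an adjusted p below 0.05. With 2 libraries per group, p-values rest on the spread shared over groups and genes, with a common coefficient of variation between replicates of 3.35%. The Veh libraries differed most from each other. Their chi-square per gene against equal proportions was 3.93, beside 2.12 in RA, 1.58 in NR and 1.73 in NRRA. Standard errors against Veh may therefore be too small. Isozyme shares used merged exon length (GENCODE M21), for example 13401 bases for Pfkp, 3340 for Pfkm and 6675 for Pfkl. Merged exons can include retained introns, as for Gapdh, for which no share is given. The size of a share thus depends on the annotation, which its SD between libraries does not cover. All 35 members are named. Of each other list, the text names the 3 genes with the largest called change in NRRA against Veh and a mean of at least 50 counts, and genes in a count of 5 or fewer. Alternatives were DESeq2 1.42.0, limma-voom (limma 3.58.1), RLE and upper quartile scaling, no filter, a replicate block, removal of the GC content and length trend, a 2-fold rule and each library left out.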

Additional observations from a re-analysis of the deposited data

Results flagged for a closer look

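The interaction test called a different RA response in complete and restricted medium for 9 of the 35 genes, beside 13% of all. The interaction on the log2 scale was -0.9356 for Pdk1, -0.6139 for Hif1a, -0.605 for Vegfa, -0.3294 for Slc2a1 and -0.2797 for Eno1, where RA left the gene lower in restricted medium relative to its response in complete medium. It was 2.104 for Ndufa4l2, 0.5478 for Hk2, 0.2965 for Ldhb and 0.2459 for P4ha1, in the other direction. The calls of Ldhb, Ndufa4l2 and P4ha1 each depended on single libraries, as given with their values above, and Ndufa4l2 had 4 to 44 counts per library. The other 6 calls held with each of the 8 libraries left out in turn.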

How the results depend on the processing

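Under DESeq2, limma-voom, RLE or upper quartile scaling, no filter, the replicate block and removal of the GC content and length trend, the calls that held in all were 22 of 23 (RA against Veh), 25 of 26 (NR against Veh), 29 of 31 (NRRA against Veh), 21 of 23 (NRRA against RA), 26 of 27 (NRRA against NR), 22 of 22 (NR against RA) and 8 of 9 (interaction, where DESeq2 gave Ndufa4l2 no adjusted p and that setting was left out for it). With every library left out in turn, 17, 24, 28, 20, 22, 20 and 6 of these held. The lone library of a group was then assumed to vary like the others.

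Hif1a in NRRA against Veh was called in the opposite direction, at -0.09686, when the trend with GC content and length was removed, and the cause was not tested. Requiring a 2-fold change, which by construction leaves fewer genes, gave 1 higher and 1 lower in RA against Veh, 2 and 1 in NR against Veh, 1 and 5 in NRRA against Veh, 1 and 1 in NRRA against RA and in NRRA against NR, 2 and 2 in NR against RA, and 1 and 0 in the interaction. Interaction calls above 0 numbered 2 with DESeq2 and ranged from 1 to 5 with a library left out; those below 0 ranged from 5 to 8.

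Correlations of same-numbered deviations between groups were -0.033 to 0.023. The share of counts on the 17 enzyme genes was higher in replicate 1 than in replicate 2 in each group. It was 0.596% and 0.565% in Veh, 0.489% and 0.463% under RA, 0.425% and 0.408% under NR, and 0.333% and 0.332% under NRRA. Pairing of same-numbered libraries within these genes was not tested. The replicate block gave the counts 5 and 18, 8 and 18, and 7 and 24 against Veh for RA, NR and NRRA, 7 and 18 for NRRA against RA, 7 and 20 for NRRA against NR, 10 and 12 for NR against RA, and 4 and 5 for the interaction.

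Depth limited Car9, Ankrd37 and Ndufa4l2, and adding reads on near-identical copies to the enzyme share, chosen after seeing the data, gave 0.625% and 0.593% in Veh and 0.349% and 0.348% in NRRA.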

Other observations

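Gapdh, a member and a frequent reference gene, was compared with other genes used as references, which were chosen after their values were seen. Relative to the TMM scale, the log2 fold change in NRRA against Veh was -0.90 ± 0.04 for Gapdh, -0.14 ± 0.03 for Actb, -0.40 ± 0.06 for Hprt, -0.20 ± 0.05 for Tbp, 0.26 ± 0.04 for B2m, -0.65 ± 0.04 for Ppia, -0.42 ± 0.04 for Rplp0 and -0.58 ± 0.04 for Ywhaz. A quantity divided by Gapdh would be 1.21, 1.57 and 1.87 times higher in RA, NR and NRRA than on the TMM scale.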
